A study of Neurospora crassa with 6 samples.

Results

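The transcript eif5 (NCU00366) of Neurospora crassa, a filamentous fungus, was examined in the first ribosome profiling experiment of the series. It is 1 of the 3 transcripts whose position tables were read, and every position of its table was used. The cells were mycelium of the wild-type strain FGSC2489 after 24 h of growth without light, and the table pools 2 replicates without keeping them apart. The 4 samples of the second experiment, including those treated with 3AT, were not analysed here. Ribosome profiling sequences the mRNA fragments that ribosomes protect from nuclease (footprints), and each footprint was counted at the position of its 5′ end. Because the replicates are pooled, the intervals given are 95% Wilson intervals for shares and 95% exact Poisson intervals for densities. They cover counting error only, and reads copied during amplification were not told apart.

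The protein eIF5 is the initiation factor that stimulates eIF2 to hydrolyse GTP in the scanning preinitiation complex, a step tied to recognition of the start codon. In yeast and mammalian cells the amount of eIF5 affects how strictly AUG codons in a good context are preferred, and near-cognate codons (NCCs), which differ from AUG at a single base, are used more when eIF5 is abundant. The eif5 mRNA carries upstream open reading frames (uORFs) in a long 5′ leader.

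Positions are given in nt from position 0, a high count that ends a sparse stretch. The leader was taken as positions -888 to -1, which start at the first position of the table, and the downstream part as positions 0 to 1612. Because the limit was placed by the counts, the densities on either side of it describe the data and were not tested. No transcript sequence was used, so the uORFs, the start and stop codons and the codons under the footprints were not placed. The name eIF5 comes from the study, since the RefSeq gene table has no symbol for this locus.

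The eif5 table held 816 footprints at 433 positions. The leader had 82 footprints at 49 positions, and the downstream part had 734 footprints at 384 positions. The leader thus held 10.05% of the footprints on 35.5% of the positions. Its density was 9.23 footprints per 100 nt (interval 7.34 to 11.5), against 45.5 per 100 nt (42.3 to 48.9) in the downstream part, a ratio of 0.203. Over its whole length eif5 had 32.6 footprints per 100 nt (30.4 to 34.9), against 47.2 (44.3 to 50.3) for arg-2 and 152.5 (147.0 to 158.2) for cpc-1, which encodes the transcription activator of general amino acid control. The amount of each mRNA was not measured, so these densities do not compare translation per mRNA.

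**Figure D1:**
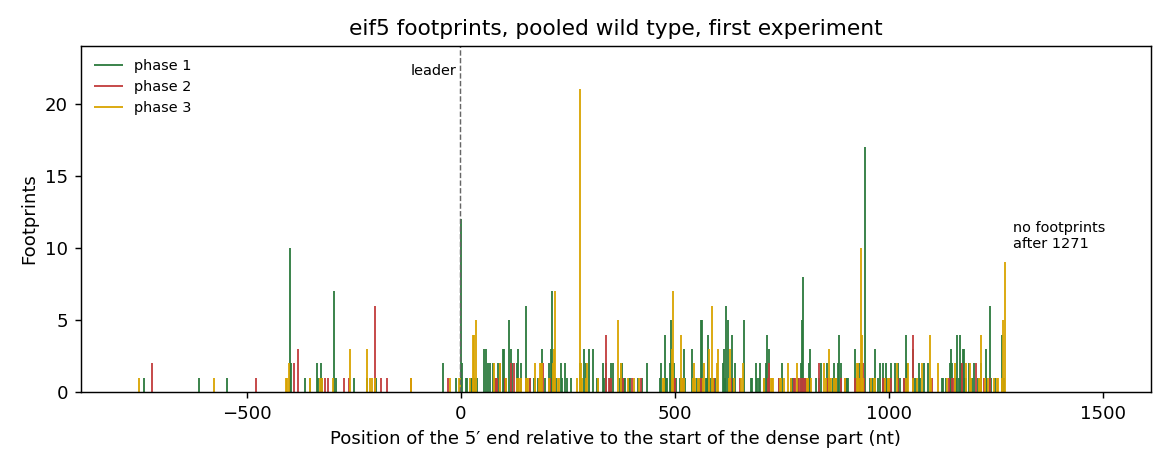
Footprints (vertical axis) at each 5′-end position of eif5 (horizontal axis, nt from position 0), coloured by phase, for the pooled wild type. The leader left of the dashed line is sparse, the highest count is 21 at position 278, and no footprint lies beyond position 1271.

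Footprints were not spread evenly through the leader. The first footprint was at position -751, and positions -888 to -410 held 8 footprints, or 1.67 per 100 nt (0.721 to 3.29). These were 2 footprints at position -722 and 1 footprint each at positions -751, -741, -612, -577, -546 and -479. The middle stretch, positions -409 to -198, held 63 of the 82 footprints of the leader (76.8%), or 29.7 per 100 nt (22.8 to 38.0). The last stretch, positions -197 to -1, held 11 footprints at 10 positions, or 5.58 per 100 nt (2.79 to 9.99), and its highest count was 2. The limits of these 3 stretches were chosen after the counts were seen, and they are given as a description. The longest run without a footprint between 2 leader footprints was 109 positions, between positions -722 and -612, and the next was 72 positions, between positions -115 and -42.

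In the leader, 6 positions had more than 2 footprints, and all of them lay in the middle stretch. Position -399 held 10 footprints, the most in the leader. Position -297 held 7 footprints and position -200 held 6. The other 3 peaks, at positions -380, -259 and -220, held 3 footprints each. The P site, in which the start codon is read, lies about 12 nt downstream of the 5′ end, which places it at positions -387, -368, -285, -247, -208 and -188 for the 6 peaks in the order of the transcript.

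These leader peaks had few footprints beside them, but those with only 3 footprints are too low to show a width. The neighbour 1 nt upstream held 2 footprints for the peak at -399, 1 each for those at -297 and -259, and 0 for the other 3. The neighbour 1 nt downstream held 1 footprint for the peaks at -220 and -200 and 0 for the other 4. A ribosome that moves on by a codon gives a footprint 3 nt downstream, and this position held 2 footprints for the peak at -399 and 0 for the other 5. Of the 6 peaks, 4 lay within 31 nt of another, the length of the longest fragments mapped: the peaks at -399 and -380 are 19 nt apart, and those at -220 and -200 are 20 nt apart. Together the peaks held 32 of the 82 footprints of the leader (39.0%, 29.2 to 49.8%). The other 50 footprints were at 43 positions, 36 of them with a single footprint. With a limit of more than 3 footprints, 3 peaks were left, at positions -399, -297 and -200.

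**Figure D2:**
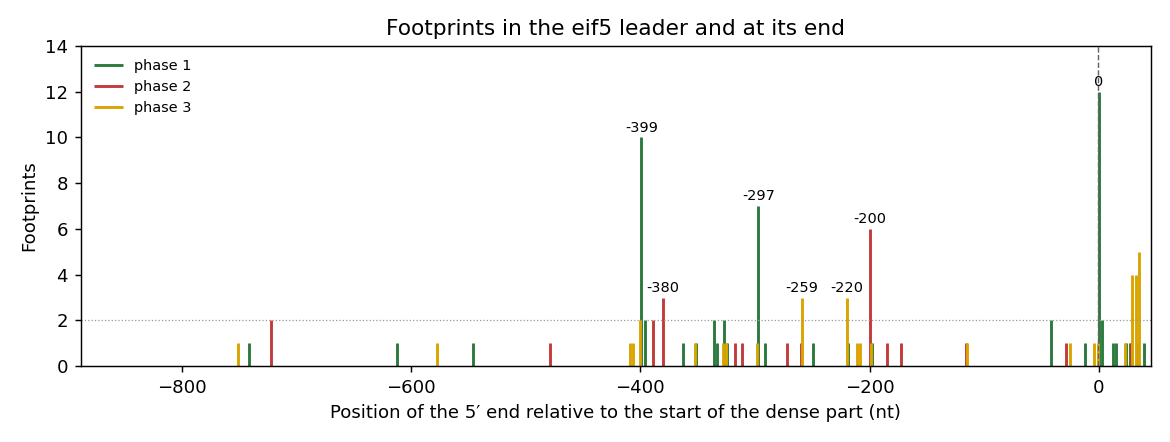
Footprints (vertical axis) by 5′-end position (horizontal axis, nt from position 0) in the leader and the first positions after it, coloured by phase. Numbers mark the 6 leader positions above the dotted line at 2 footprints, which hold 3 to 10 footprints, and position 0 with 12.

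Position 0 opened the dense part of the transcript with 12 footprints. Its neighbour 1 nt upstream held 1 footprint, that 1 nt downstream held 0, and the position 3 nt downstream held 2. The P site of the footprints at position 0 would lie at position 12. From position 0 to position 1271 the 1272 positions held 57.7 footprints per 100 nt (53.6 to 62.0), 6.25 times the density of the leader and 1.94 times that of its middle stretch. In 6 equal parts of 212 nt, the density in the order of the transcript was 63.7, 54.2, 60.4, 44.3, 67.9 and 55.7 footprints per 100 nt. The highest, in the fifth part, was 1.53 times the lowest, in the fourth part (intervals 57.3 to 80.0 and 35.8 to 54.3). Both parts were picked after the counts were seen, and their difference was not tested. Of the 144 footprints of the fifth part, 17 lay at position 945 alone. The densities followed no steady order from the first part to the last.

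Most codon-sized units of this dense part were occupied. In the leader, 45 of 296 triplets of positions had at least 1 footprint (15.2%, 11.6 to 19.7%), against 276 of the 424 triplets from position 0 to 1271 (65.1%, 60.4 to 69.5%). The longest run without a footprint in the dense part was 29 positions, between positions 435 and 465. Runs of 15 or more empty positions between footprints numbered 11 in the leader and 1 in the dense part.

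**Figure D3:**
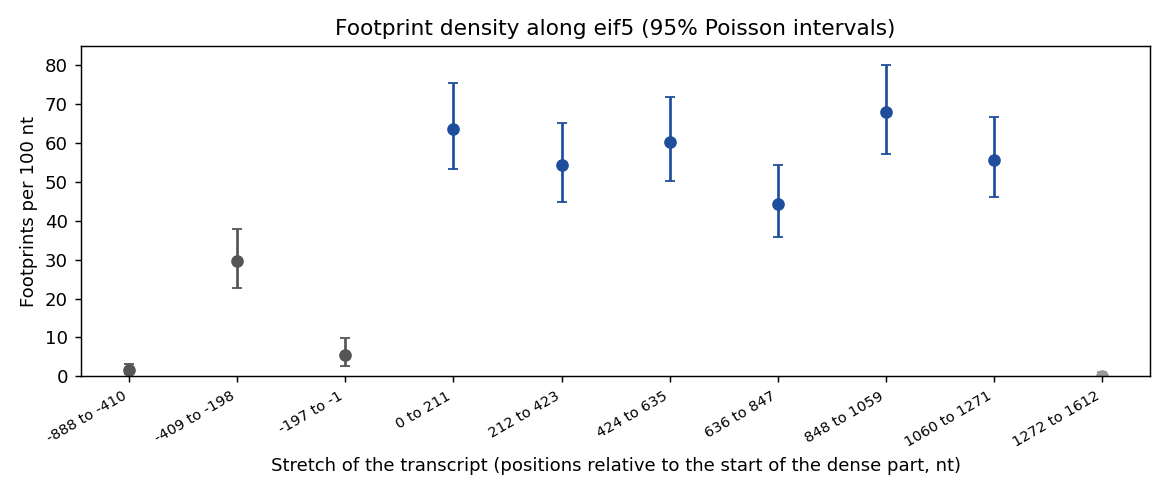
Footprints per 100 nt (vertical axis, points with 95% exact Poisson intervals) in the 3 stretches of the leader, in 6 equal parts from position 0 to 1271, and after them (horizontal axis, positions in nt). The middle stretch of the leader lies at 29.7, the other leader stretches at 1.67 and 5.58, and the 6 parts between 44.3 and 67.9.

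In the downstream part, 13 positions held 6 or more footprints, which are the 10 highest with their ties. The highest was position 278 with 21 footprints. Position 945 held 17 footprints, and position 935, only 10 nt upstream of it, held 10. Position 0 was the next after position 945 with its 12 footprints. Position 1271, the last with any footprint, held 9, and position 801 held 8. Positions 213, 221 and 497 held 7 footprints each, and positions 153, 587, 621 and 1236 held 6 each. These 13 positions held 122 of the 734 footprints (16.6%, 14.1 to 19.5%).

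The tallest of these peaks, at positions 278 and 945, also had few footprints beside them. The neighbours of position 278 held 0 footprints 1 nt upstream and 2 footprints 1 nt downstream, and both neighbours of position 945 held 0. The position 3 nt downstream held 2 footprints for the peak at 278 and 0 for that at 945. It held 5 for the peak at 621 and 4 for that at 935. For the peaks at 801 and 1271, the position 3 nt upstream held 5. All other positions 3 nt from a peak held 0 to 3. With phase 1 taken as the positions whose distance from position 0 is a multiple of 3, 7 of the 13 peaks were in phase 1, 6 were in phase 3 and 0 were in phase 2. The peaks of phase 1 held 62 footprints and those of phase 3 held 60.

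Ribosomes advance 3 nt at a time, so footprints of a single reading frame fall mostly in 1 of the 3 phases. In the leader, 37 of 82 footprints fell in phase 1 (45.1%, 34.8 to 55.9%), 22 in phase 2 (26.8%) and 23 in phase 3 (28.05%). In the downstream part, 412 of 734 footprints fell in phase 1 (56.1%, 52.5 to 59.7%), 83 in phase 2 (11.3%) and 239 in phase 3 (32.6%). The difference in the share of phase 1, -11.0 percentage points, did not pass 0.05 (Fisher's exact test, two-sided, p = 0.062).

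That test rested on single positions. The highest position of the leader, -399, is in phase 1, and that of the downstream part, 278, is in phase 3. Leaving both out could therefore only widen the difference. The share of phase 1 was then 37.5% in the leader and the difference was -20.3 percentage points (Fisher's exact test, p = 0.0011). With the limit moved to position 12, so that the 12 footprints at position 0 fell in the leader, it was -2.15 percentage points (Fisher's exact test, p = 0.74). The main limit was placed by the counts just upstream of these footprints, which are in phase 1, so that choice puts them downstream. The test across it therefore cannot say whether the 2 parts differ in phase. Footprints at a single position are not independent of each other, so these p-values describe the pooled counts and not the spread between cultures.

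Within the leader, the most common phase changed at about position -289. From -409 to -289, 28 of 43 footprints were in phase 1 (65.1%, 50.2 to 77.6%), 7 in phase 2 and 8 in phase 3. The peaks at -399 and -297 gave 17 of these 28, and the other 11 were 2 footprints each at positions -396, -336 and -327 and 1 each at positions -363, -351, -333, -324 and -291. From -288 to -1, 6 of 31 footprints were in phase 1 (19.4%, 9.19 to 36.3%), 12 in phase 2 and 13 in phase 3. The other 4 peaks of the leader were in phase 2, at -380 and -200, and in phase 3, at -259 and -220. This border was chosen after the phases were seen, so both shares are a description. Footprints at a single position are not independent, and positions -399 and -297 held 17 of the 28 in phase 1. The intervals are therefore not read against the 33.3% of an even spread.

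In windows of 300 nt counted from the start of the table, phase 1 led in 6 of the 7 windows with at least 20 footprints. From position 12 to 1211 its share was 51.3%, 52.4%, 65.2% and 56.9% in 4 successive windows. The same windows had 39.9%, 36.6%, 21.3% and 28.2% of their footprints in phase 3. Phase 2 stayed between 8.81 and 14.9% in them. In the leader window from -588 to -289, 29 of 46 footprints were in phase 1 (63.0%, 48.6 to 75.5%). In the window from -288 to 11, which spans the limit, 20 of 45 were in phase 1 (44.4%, 30.9 to 58.8%), and phase 1 led only through the 12 footprints at position 0 and the 2 at position 3.

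The exception was the window from position 1212 to 1511, with 25 of 46 footprints in phase 3 (54.3%, 40.2 to 67.8%). It was singled out with this share known, and is described here by its positions. The footprints of this window ended at position 1271, and its remaining 240 positions held 0. From 1212 to 1241, 13 of 22 footprints were in phase 1, as were 27 of the 40 in the 60 nt before. From 1242 to 1271, 18 of 24 footprints were in phase 3 (75.0%, 55.1 to 88.0%), 6 in phase 1 and 0 in phase 2. Position 1271 held 9 of these 18 and position 1268 held 5. The other positions of the window with more than 2 footprints were position 1217, with 4 in phase 3, and positions 1227, 1236 and 1266, with 3, 6 and 4 in phase 1. Phase 3 led through these last positions: without position 1271 the window had 16 footprints in phase 3 and 19 in phase 1.

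Smaller windows showed phase 3 in several other places. In windows of 60 nt moved by 30 nt, 41 windows from position 0 on had at least 10 footprints. Phase 1 led in 32 of them, phase 3 in 8 and phase 2 in 0, and 1 was tied. The 8 windows of phase 3 overlap in part and start at positions 222, 252, 492, 732, 882, 1062, 1212 and 1242. In 6 of the 8, phase 1 led when the highest position was left out. The windows from 222 and 252 had 72.2% and 65.1% of their footprints in phase 3 with position 278, and 5 of 15 and 7 of 22 footprints without it. In the window from 1242 phase 3 still led. The window from 732 had 8 footprints in phase 3 and 7 in phase 1, with no position above 2 footprints, and without a single phase 3 position of 2 footprints phase 1 leads in it.

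Shorter runs of phase 3 also occurred near position 0. Positions 29, 32 and 35, which are 3 nt apart, held 4, 4 and 5 footprints, and of the 18 footprints from position 23 to 35, 14 were in phase 3, 3 in phase 1 and 1 in phase 2. Likewise positions 215, 218 and 221 held 2, 3 and 7 footprints, and 12 of the 13 footprints from 215 to 221 were in phase 3. Both runs were picked after their counts were seen. A phase 3 position lies 1 nt upstream of the next phase 1 position, so a shift of the 5′ ends by 1 nt and another reading frame give the same phase, and they cannot be told apart here.

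**Figure D4:**
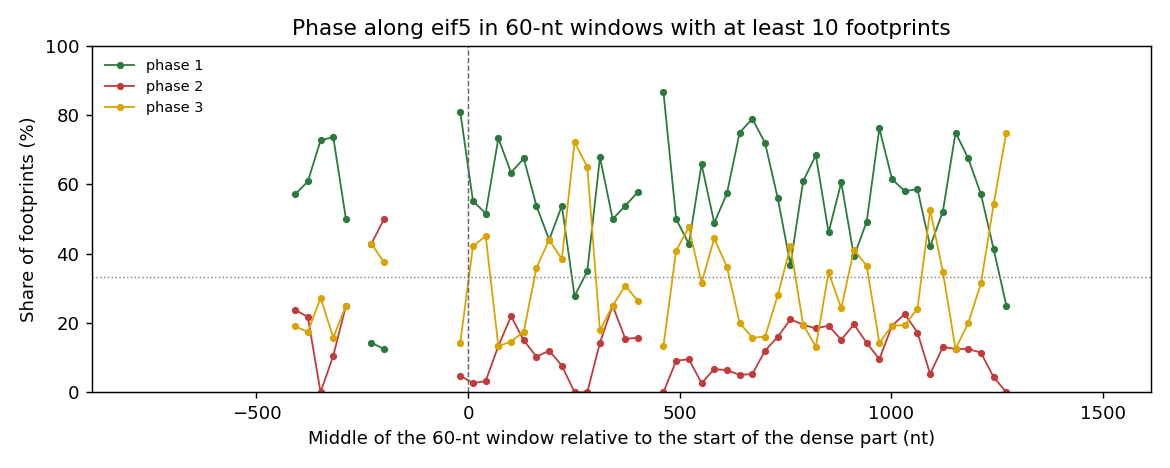
Share of footprints in each phase (vertical axis, %) in windows of 60 nt with at least 10 footprints, by the middle of the window (horizontal axis, nt from position 0). The dotted line is the even share of 33.3%, and lines break where a window has fewer footprints. Phase 1 leads in 32 of the 41 windows that start after the dashed line at position 0 and phase 3 in 8, and the leader windows after position -289 have the lowest shares of phase 1, except those that reach over position 0.

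Footprints ended sharply. Position 1271 held 9 footprints and the 341 positions after it held 0, which by the one-sided limit of 3 footprints for a count of 0 allows up to 0.880 per 100 nt. The upper bound of the two-sided exact Poisson interval is 1.08 per 100 nt. The last 6 positions, 1266 to 1271, held 19 of the 46 footprints of the last 60 nt (41.3%, 28.3 to 55.7%), with 4, 0, 5, 1, 0 and 9 footprints in order. Just upstream of them, positions 1253, 1256 and 1265 held 1 footprint each, and the positions between these were empty.

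The arg-2 transcript, which encodes the small subunit of an arginine-specific carbamoyl phosphate synthetase, also had high counts at the end of its footprints. Its last footprint was at coordinate 1698 of its own table, and the 411 positions after it held 0. Its last 6 positions held 39 of the 117 footprints of the last 60 nt (33.3%, 25.4 to 42.3%), with 19 footprints at coordinate 1696 and 15 at coordinate 1695. The intervals of the eif5 and arg-2 shares overlap. This comparison was chosen after the counts were seen and was not tested.

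**Figure D5:**
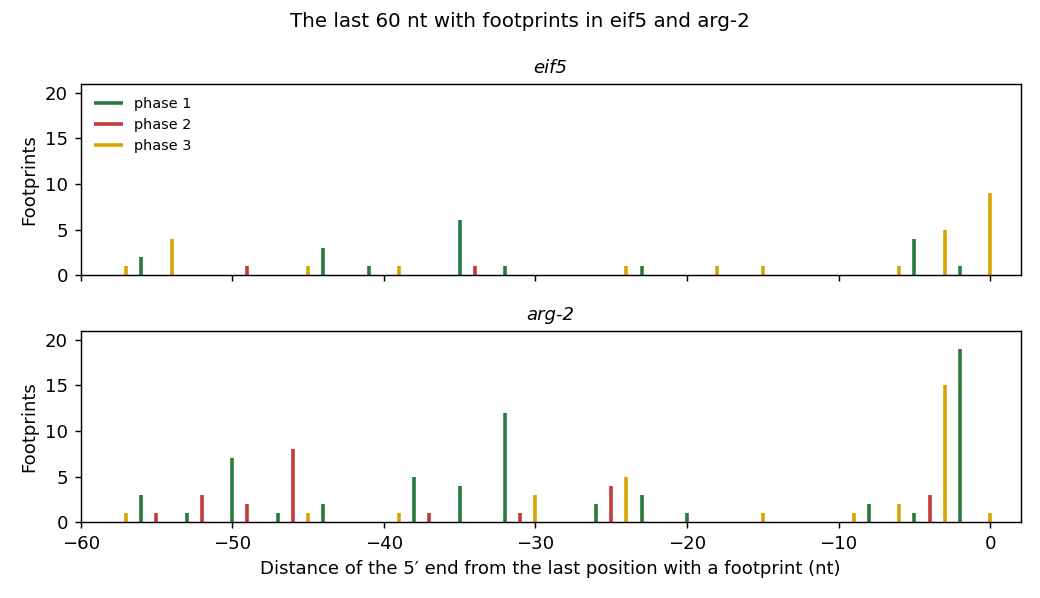
Footprints (vertical axis) in the last 60 nt with footprints in eif5 (top) and arg-2 (bottom), by distance of the 5′ end from the last position with a footprint (horizontal axis, nt), coloured by phase. The highest count of each lies in the last 6 positions, 9 in eif5 and 19 in arg-2.

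The share of the most common phase was set against those of the other tables. In the downstream part of eif5 it was 56.1%, against 61.0% (58.0 to 64.0%) of the 996 footprints of arg-2, a difference of -4.91 percentage points (Fisher's exact test, two-sided, p = 0.043, with Benjamini-Hochberg adjustment for 2 comparisons p = 0.043). With the highest position of each table left out (position 278 in eif5) the difference was -2.50 percentage points (Fisher's exact test, p = 0.32). Position 278 is in phase 3, so leaving it out could only raise the share of eif5. This alternative therefore does not show what the difference rested on. The share of eif5 was 9.88 percentage points above the 46.2% (44.4 to 48.1%) of the 2852 footprints of cpc-1 (Fisher's exact test, adjusted p = 3.7e-06). Its size depended on the highest positions: it was 5.05 percentage points without them (Fisher's exact test, p = 0.017) and 15.5 with each position counted a single time (Fisher's exact test, p = 9.5e-06). Without position 278 the share of eif5 rose to 57.8%, so the smaller difference came from the highest position of cpc-1. The cpc-1 table covers uORFs in other frames than its main ORF, so its share over all coordinates mixes frames. The share of arg-2 was also taken over all its coordinates, its leader and uORF included.

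Outside phase 1, the footprints of eif5 were divided unequally between the other phases downstream. In the leader, 23 of 45 such footprints were in phase 3 (51.1%, 37.0 to 65.0%). In the downstream part, 239 of 322 were in phase 3 (74.2%, 69.2 to 78.7%). In arg-2, 227 of 388 were (58.5%, 53.5 to 63.3%), and the intervals of the downstream part and arg-2 did not overlap. The arg-2 counts cover all its coordinates, its leader and uORF included, so unlike regions are set side by side. When each position was counted a single time, the shares were 63.9% (56.8 to 70.5%) in the downstream part of eif5 and 55.7% (49.0 to 62.3%) in arg-2, with overlapping intervals. This comparison was also chosen after the counts were seen and was not tested.

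The height of a position and its phase were also set side by side in the downstream part. Of the 223 positions with 1 footprint, 100 were in phase 1 (44.8%, 38.5 to 51.4%), 53 in phase 2 and 70 in phase 3. Of the 69 positions with 3 or more footprints, 46 were in phase 1 (66.7%, 54.9 to 76.6%), 2 in phase 2 and 21 in phase 3. Of the 13 positions with 6 or more footprints, 7 were in phase 1 (53.8%, 29.1 to 76.8%), as were 4 of the 9 with 7 or more (44.4%, 18.9 to 73.3%). These small sets are nested and their intervals include 66.7%. Whether the share changes above 3 footprints can therefore not be told. In the leader, 12 of the 36 positions with 1 footprint were in phase 1 (33.3%, 20.2 to 49.7%), 9 in phase 2 and 15 in phase 3. Phase 2 thus had few high positions downstream, while 2 of the 6 leader peaks were in phase 2. Downstream, phase 1 held 56.1% of the footprints and phase 2 held 11.3%. The differences by height there partly restate these shares.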

How the data were processed

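Ribosome-protected fragments of 2 pooled wild-type replicates were analysed. The authors deposited counts of footprints by 5′-end coordinate, without normalization. Per the labels and the study's methods, reads were trimmed with cutadapt 1.2.1, fragments of 28 to 31 nt were mapped to transcripts with Bowtie 0.12.9 on the sense strand with all valid matches kept, and rRNA was not depleted. Fragments shared between transcripts can therefore be counted on each. The genome build is not given in the sources used here. An empty count was read as 0. The deposited tables repeat the counts in 3 position columns, which in eif5 matched the phase of the coordinate at every position.

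Phases, densities and peaks were computed in Python (version 3.11.15) with NumPy (2.4.6), SciPy (1.17.1) and Matplotlib (3.10.9). Fisher's exact test was tested on simulated counts of independent footprints. Footprints at a single position are not independent, so this check does not vouch for the p-values given. The limit of the leader, the windows and the positions to be named (leader positions with more than 2 footprints, the 10 highest downstream with ties, and those with more than 2 footprints in a window of deviating phase) were chosen with earlier results of these data known. The planned reading of codons at the peaks needs the transcript sequence and was not run. Alternatives were positions counted a single time, the highest position left out, other limits, other windows and other footprint minimums.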

Additional observations from a re-analysis of the deposited data

How the results depend on the processing

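No paired analysis was possible because replicates of a single condition were pooled before deposition, so replicates could not be left out either. Among 27 alternative values, 14 changed neither direction nor side of the threshold or stayed in their interval, 4 passed the threshold newly, 3 no longer did, 6 moved and 0 reversed. The lower share of phase 1 in the leader passed 0.05 in Fisher's exact test with each position counted a single time (-15.6 percentage points, p = 0.048), with the highest positions left out (-20.3), without positions 1212 to 1511 (-12.0, p = 0.045) and, chosen after the data were seen, without the leader peaks (-16.1, p = 0.028). Positions 1212 to 1511 were singled out for their low share of phase 1, so leaving them out could only widen this difference and supports nothing. The same holds for the highest positions, in phase 1 in the leader and in phase 3 downstream. It also holds for the leader peaks, with 17 of their 32 footprints in phase 1. The lower share in the leader did not pass 0.05 in Fisher's exact test with the leader ended at position -200 (-8.30, p = 0.21). The difference from cpc-1 kept its side of the threshold but ranged from 5.05 to 15.5 percentage points. The difference from arg-2 no longer passed in Fisher's exact test with each position counted a single time (-2.10, p = 0.58), without the highest positions (-2.50) or, chosen after the data were seen, with arg-2 counted from its coordinate 400 on (-4.38, p = 0.078). Leaving out the highest position of eif5, which is in phase 3, could only raise the share of eif5. With each position counted a single time the density was 5.52 per 100 nt in the leader and 23.8 downstream, and the share of phase 3 among phases 2 and 3 downstream was 63.9%. With the downstream part ended at its last footprint, chosen after the data were seen, its density was 57.7 per 100 nt. In the window moved by 150 nt, positions 1062 to 1361, the share of phase 3 was 37.3%. In positions 1212 to 1511 it was 43.2% without position 1271 and, chosen after the data were seen, 40.7% without the last 6 nt with footprints. Both stayed in the interval of 54.3% and are counted so above, but phase 1 then led. With more than 3 footprints, 3 leader peaks were left. The 82 footprints of the leader limit its phase shares to the wide intervals given.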
